A study of Homo sapiens with 15 samples.

Results

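Human umbilical vein endothelial cells (HUVEC) that had been kept with exosomes of the JINB8 T cell line were compared with untreated HUVEC. The comparison used 6 of the 15 arrays of the series, the 3 titled as HUVEC with JINB8 exosomes and the 3 titled as HUVEC alone, chosen by their titles and not by any measured value. It is described across all 18417 genes that a probeset names with a single symbol. JINB8, also written JinB8, is a mutant of the Jurkat T cell leukaemia line that lacks CD47, so the vesicles came from 1 mutant line. Conditioned medium of these cells, which had been moved to low human AB serum before collection, was concentrated, and exosomes were taken from it with an ExoQuick precipitation kit. The HUVEC stayed with the exosomes for 6 h in EGM2 medium. For the untreated cells the labels give no treatment and no time, and call HUVEC an endothelial cell line. The labels name no group that received precipitate from medium without cells. A further 3 arrays of HUVEC kept in the same way with exosomes of Jurkat cells, called JK, entered the fit to share its estimate of the spread. Nothing in the labels says that the replicates came from separate cultures, so the p-values rest on a spread between samples that may be technical.

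Endothelial cells line blood vessels and control which leukocytes attach, whether blood clots, and how vessels dilate and sprout. In response to inflammatory cytokines they place selectins and adhesion molecules on their surface and release chemokines, largely through the transcription factor NF-kB. Exosomes are small vesicles that carry RNA and membrane proteins between cells, and CD47 is a surface receptor for thrombospondin-1. The question the groups address is how endothelial RNA levels differ after contact with vesicles of T cells without CD47.

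The deposited levels of the 2 groups did not lie on one scale. Array medians averaged 6.97 ± 0.06 (SD, n = 3) in untreated HUVEC and 5.11 ± 0.02 with JINB8 exosomes on the log2 scale, and the median gene differed by -1.71. In HUVEC with JK exosomes they averaged 5.14, and in the RNA of JK and JINB8 exosomes, without HUVEC, 5.11 and 5.12. The untreated arrays thus stood above all other arrays of the series, and not only above the treated HUVEC. Unless called deposited, all values below were therefore quantile-normalized over the 9 HUVEC arrays, and each change is relative to this array-wide difference. A batch effect and the effect of the exosomes cannot be told apart, because this level difference runs along the groups. In these bulk samples, fewer cells of a type and less RNA per cell cannot be told apart either. Deposited values correlated across probesets, which are not independent replicates, at 0.989 to 0.993 within the untreated group and 0.992 to 0.994 within the JINB8 group. Between these 2 groups the correlation was 0.955 to 0.964, and between JINB8 and JK arrays it was 0.99 to 0.993. No detection calls were used, so a low signal could not be set against background.

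Very many genes passed the test. Of the 18417 genes 9072, or 49.3%, had an adjusted p under 0.05 (limma, Benjamini-Hochberg adjustment over all genes), 4790 of them higher (26%) and 4282 lower (23.3%). Counts of list members called higher or lower below are to be read against these shares. With median centring in place of quantile normalization the split was 7028 higher and 3446 lower, and the median log2 difference of all genes was 0.13 instead of 0.02. At least 2-fold changes were fewer, 469 higher (2.55%) and 648 lower (3.52%), and 1115 of these 1117 genes kept their direction and an adjusted p under 0.05 (limma) under 5 other normalizations or array sets. The values of the 2 groups did not overlap for 10620 genes (57.7%). The most changed genes named below were taken from among these, so their lack of overlap follows from the choice. Large changes ran mostly downward: 107 genes were lower and 35 higher by at least 4-fold, and 26 were lower and 4 higher by at least 8-fold. Among 5504 genes in the top 33.3% of the level in both groups, where signals were strong, 180 fell and 131 rose at least 2-fold.

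**Figure D1:**
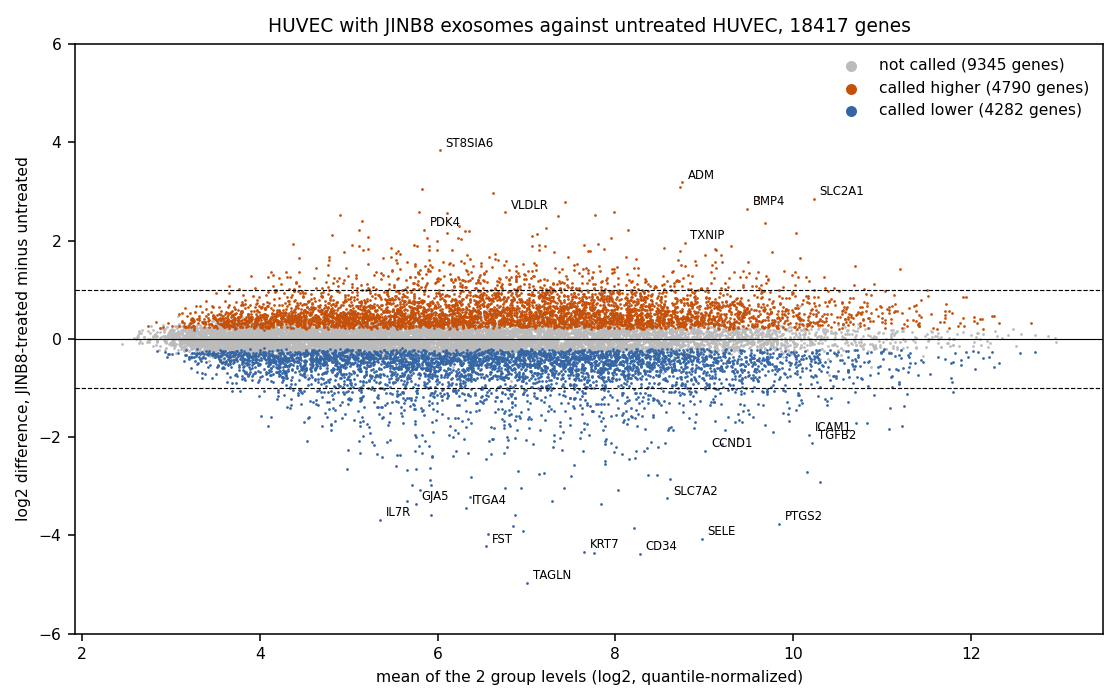
Each point is 1 of 18417 genes, placed by the mean of the 2 group levels (x axis, log2) and by the log2 difference of JINB8-treated minus untreated HUVEC (y axis), with dashed lines at 2-fold. The 4282 genes called lower reach a difference of -4.96 for TAGLN, and the 4790 called higher reach 3.83 for ST8SIA6.

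The greatest fall was that of TAGLN, which encodes transgelin, an actin-binding protein of contractile cells. TAGLN levels were 9.62, 9.49 and 9.36 on the untreated arrays and 4.49, 4.56 and 4.54 on the JINB8 arrays, a log2 difference of -4.96 ± 0.10 (SE, limma, n = 3 per group, adjusted p = 2.12e-10). CD34, a sialomucin of endothelial and stem cell surfaces, read 10.56, 10.47 and 10.37 on the untreated arrays and 6.08, 6.28 and 5.89 on the JINB8 arrays. The simple epithelial keratin KRT7 read 9.97, 9.65 and 9.83 on the untreated arrays and 5.66, 5.22 and 5.58 on the JINB8 arrays. For these 3 genes the groups lay far apart, by -4.96, -4.38 and -4.33, with little spread inside either group. FST encodes follistatin, which binds and blocks activins, and its levels were 8.85, 8.42 and 8.71 on the untreated arrays and 4.42, 4.60 and 4.29 on the JINB8 arrays. GJA5, the gap junction protein connexin 40 of arterial endothelium, stood at 7.63, 7.09 and 7.56 on the untreated arrays and 4.14, 4.24 and 3.84 on the JINB8 arrays. The fatty acid carrier FABP4 had 8.93, 8.45 and 8.62 on the untreated arrays and 4.51, 4.85 and 5.88 on the JINB8 arrays. FST and GJA5 were low on all 3 JINB8 arrays, and FABP4 differed by -3.59 ± 0.53 with more spread between arrays.

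Other genes among the 25 lowest have roles at the cell surface and in the matrix. ITGA4, the integrin subunit alpha 4, read 8.05, 8.17 and 7.89 on the untreated arrays and 4.72, 4.70 and 4.38 on the JINB8 arrays, a difference of -3.44 ± 0.11 (limma, adjusted p = 4.01e-09). FBLN5, an elastic fibre protein, differed by -3.37 ± 0.08, and CTHRC1, a secreted collagen triple helix protein, by -3.03 ± 0.09. SLC7A2, a transporter of cationic amino acids such as arginine, had 10.20, 10.09 and 10.33 on the untreated arrays and 6.99, 6.77 and 7.11 on the JINB8 arrays. For SLC7A2 the difference was -3.25 ± 0.10. IL7R, the interleukin 7 receptor chain, differed by -3.69 ± 0.16, the lipoprotein APOD by -3.02 ± 0.11 and the nicotinic receptor subunit CHRNA1 by -3.91 ± 0.12. Across the 25 lowest genes the adjusted p was at most 0.00021, and 14 of them ranked in the lowest 33.3% of genes in the JINB8 group, so the size of those changes is uncertain.

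The rises reached less far. ST8SIA6, a sialyltransferase, read 4.29, 3.96 and 4.08 on the untreated arrays and 8.11, 7.87 and 7.84 on the JINB8 arrays, a log2 difference of 3.83 ± 0.12 (limma, adjusted p = 4.01e-09). ADM encodes adrenomedullin, a peptide that dilates vessels, and its levels were 7.06, 7.04 and 7.38 on the untreated arrays and 10.75, 10.49 and 9.78 on the JINB8 arrays. VLDLR, the very low density lipoprotein receptor, stood at 5.53, 5.56 and 5.32 on the untreated arrays and 8.20, 8.12 and 7.81 on the JINB8 arrays. The differences of ADM and VLDLR were 3.18 ± 0.27 and 2.57 ± 0.13. GDF3, a growth factor of the TGF-beta family, differed by 3.09 ± 0.41, the stress protein gene SESN3 by 2.96 ± 0.28 and the glutamate transporter SLC1A1 by 2.25 ± 0.10. The transcription elongation gene MLLT3 differed by 2.50 ± 0.15 and the ceramidase gene ACER2 by 2.51 ± 0.08. AK4, a mitochondrial adenylate kinase, differed by 2.57 ± 0.16, while its other probeset gave 0.84. Of the 25 highest genes 12 ranked in the lowest 33.3% in untreated cells and 4 in the top 33.3% of both groups, and the largest adjusted p among them was 0.0103.

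Some of the genes that changed most were strongly expressed in both groups. SLC2A1 encodes the glucose transporter GLUT1, and its levels were 8.83, 8.75 and 8.85 on the untreated arrays and 11.84, 11.72 and 11.39 on the JINB8 arrays. The growth factor gene BMP4 had 8.27, 7.96 and 8.25 on the untreated arrays and 10.79, 10.86 and 10.73 on the JINB8 arrays. ARRDC3, an arrestin-domain protein of receptor trafficking, read 8.33, 8.11 and 8.06 on the untreated arrays and 11.13, 11.15 and 10.86 on the JINB8 arrays. These 3 rose by 2.84 ± 0.13, 2.63 ± 0.09 and 2.88 ± 0.12. EFNA1, the ephrin A1 ligand, rose by 1.66 ± 0.09 and PPP1R16B, a phosphatase regulator of endothelial cells, by 1.81 ± 0.12. The inositol transporter SLC5A3 read 8.16, 8.85 and 8.49 on the untreated arrays and 11.77, 11.33 and 9.48 on the JINB8 arrays and differed by 2.36 ± 0.65 (adjusted p = 0.0103, or 0.0514 with a variance trend and robust fit, limma). Among strongly expressed genes that fell, PTGS2, the inducible cyclooxygenase, read 11.65, 11.78 and 11.73 on the untreated arrays and 7.95, 7.91 and 8.02 on the JINB8 arrays. The cell cycle gene CCND1, cyclin D1, stood at 10.23, 9.99 and 10.24 on the untreated arrays and 7.83, 7.61 and 8.16 on the JINB8 arrays. DKK1, a secreted inhibitor of Wnt signalling, was at 11.45, 11.64 and 11.44 on the untreated arrays and 8.96, 8.82 and 8.61 on the JINB8 arrays. For these 3 genes the differences were -3.76 ± 0.08, -2.29 ± 0.21 and -2.71 ± 0.10. GLIPR1 differed by -2.92 ± 0.12, the kinase gene SGK1 by -1.86 ± 0.17, the scaffold gene AKAP12 by -1.86 ± 0.20 and the immune checkpoint ligand gene PDCD1LG2 by -2.09 ± 0.17.

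**Figure D2:**
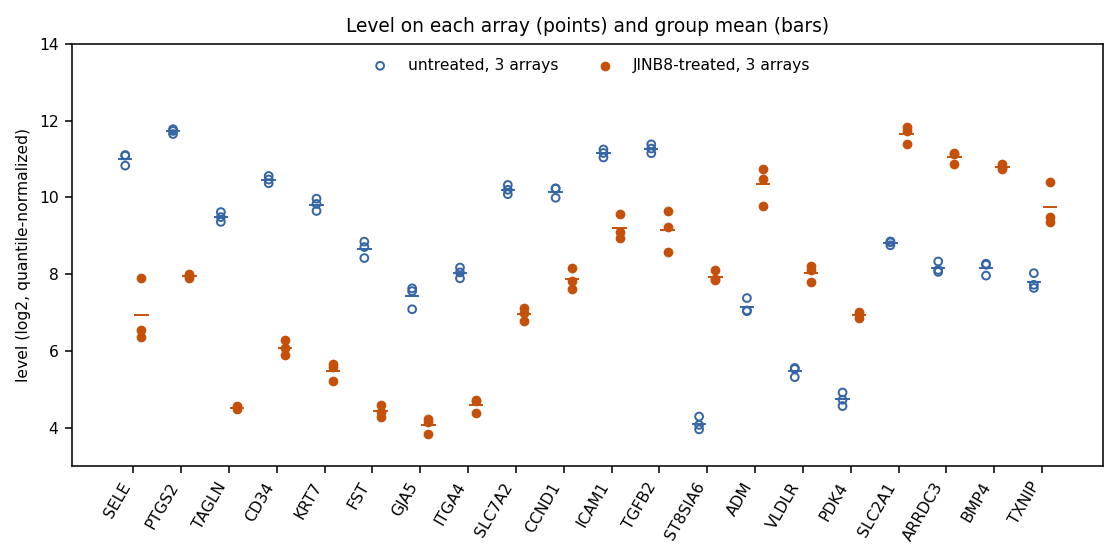
Quantile-normalized log2 levels of 20 genes are shown on each of the 3 untreated arrays (open points) and the 3 JINB8 arrays (filled points), with bars at the group means. In all 20 genes the groups are separate, as the rule for the most changed genes required, and SELE has the widest spread among treated arrays, from 6.36 to 7.91.

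The molecules that hold leukocytes on the endothelium were mostly lower. SELE, or E-selectin, the rolling receptor that cytokines induce, read 11.11, 10.83 and 11.09 on the untreated arrays and 6.36, 6.54 and 7.91 on the JINB8 arrays. VCAM1, the ligand of the integrin alpha 4 beta 1, had 7.52, 7.18 and 7.52 on the untreated arrays and 4.46, 4.43 and 4.41 on the JINB8 arrays. ICAM1, which binds leukocyte beta 2 integrins, was at 11.16, 11.04 and 11.25 on the untreated arrays and 8.95, 9.10 and 9.57 on the JINB8 arrays. The 3 treated arrays lay below the untreated ones for each, and the differences were -4.07 ± 0.37, -2.98 ± 0.10 and -1.95 ± 0.15 (limma, adjusted p = 5.91e-06, 5.1e-09 and 1.94e-06). The hyaluronan receptor CD44 went from 9.87, 9.90 and 9.79 to 7.03, 6.93 and 7.30, without overlap. Of 17 measured adhesion genes 11 fell and 2 rose, 4 and 1 of them at least 2-fold, with a median difference of -0.66 against 0.02 for all genes (-0.09 with median centring). The 2 that rose were PECAM1, by 0.37 on the chosen probeset and 1.92 on its other one, and SELP, or P-selectin, which endothelial cells keep in storage granules. SELP levels were 4.96, 4.78 and 4.87 on the untreated arrays and 6.29, 6.53 and 6.50 on the JINB8 arrays, a difference of 1.57 ± 0.09 (limma, adjusted p = 2.08e-07), so that the 2 endothelial selectins changed in opposite directions.

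Chemokines and cytokines ran the same way. IL1A, an alarm cytokine, read 8.01, 7.85 and 8.07 on the untreated arrays and 4.59, 4.75 and 4.92 on the JINB8 arrays. The neutrophil chemokine gene CXCL8 had 9.54, 9.42 and 9.74 on the untreated arrays and 6.54, 6.32 and 6.62 on the JINB8 arrays. TNFSF4, the OX40 ligand that costimulates T cells, was at 8.56, 8.33 and 8.68 on the untreated arrays and 5.84, 5.46 and 6.00 on the JINB8 arrays. None of these groups overlapped, and the differences were -3.23 ± 0.12, -3.08 ± 0.14 and -2.76 ± 0.16. Of 25 measured members 16 fell and 2 rose, 11 and 0 at least 2-fold, with a median of -0.84. CXCL12, which binds the receptor CXCR4, differed by -2.65 ± 0.14, CX3CL1 by -1.72 ± 0.12, IL6 by -1.42 ± 0.11 and CXCL1 by -2.26 ± 0.22. CXCL1, CXCL2 and CXCL3 are close copies of one another and uncertain as single genes. Among 16 regulators of NF-kB 12 fell and none rose, with a median of -0.62 (-0.35 with median centring). The steepest were TRAF1 and IKBKE, an adaptor and a kinase of the pathway, at -2.40 ± 0.10 and -1.20 ± 0.13, and the feedback inhibitors TNIP3 and TNFAIP3, at -1.06 ± 0.12 and -1.01 ± 0.22. The subunit gene RELA fell as well, with a difference of -0.76 ± 0.08. NFKBIA, the inhibitor IkB alpha, did not pass, at 0.38 ± 0.15 (limma, adjusted p = 0.0561). It passed at 0.51 without untreated array 2, at 0.49 without JINB8 array 3 and at 0.38 without JK array 3, and with median centring at 0.89. It also passed with the 6 compared arrays alone, a variance trend and robust fit or array weights (0.37 to 0.38, limma, adjusted p = 0.0499, 0.0484 and 0.0404).

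Promoters of 4 of these genes are shown because each holds letters of the form that NF-kB binds and each gene fell. They run 5′ to 3′ on the strand of the gene over the 250 bases before the RefSeq start (GRCh38.p14), at chr1:169734080-169734329 (minus strand), chr1:100719492-100719741 (plus), chr19:10270870-10271119 (plus) and chr4:73740319-73740568 (plus). Capitals mark GGNNTTTCC on either strand.
SELE: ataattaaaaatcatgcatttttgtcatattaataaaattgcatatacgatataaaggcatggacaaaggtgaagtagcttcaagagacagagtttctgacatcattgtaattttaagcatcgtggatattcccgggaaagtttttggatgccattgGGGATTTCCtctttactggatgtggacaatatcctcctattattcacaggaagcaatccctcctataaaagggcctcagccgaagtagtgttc
VCAM1: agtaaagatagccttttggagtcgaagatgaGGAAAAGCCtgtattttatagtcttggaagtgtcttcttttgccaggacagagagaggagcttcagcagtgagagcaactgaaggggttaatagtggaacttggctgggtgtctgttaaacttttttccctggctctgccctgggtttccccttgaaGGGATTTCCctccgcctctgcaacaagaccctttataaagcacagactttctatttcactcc
ICAM1: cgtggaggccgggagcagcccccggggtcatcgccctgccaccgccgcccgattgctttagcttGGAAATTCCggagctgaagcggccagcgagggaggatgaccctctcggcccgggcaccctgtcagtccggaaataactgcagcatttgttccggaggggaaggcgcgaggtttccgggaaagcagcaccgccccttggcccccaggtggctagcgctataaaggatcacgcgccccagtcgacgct
CXCL8: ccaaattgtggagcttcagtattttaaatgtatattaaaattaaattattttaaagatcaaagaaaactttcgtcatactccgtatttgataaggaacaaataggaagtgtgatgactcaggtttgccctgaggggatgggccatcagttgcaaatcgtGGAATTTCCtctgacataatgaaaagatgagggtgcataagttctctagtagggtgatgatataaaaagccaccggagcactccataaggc
In the same window 5.48% of 27305 RefSeq promoters held the form on either strand, and 5.85% of the 14239 promoters of measured genes. Among the promoters found for the lists, 10 of 19 chemokine and cytokine genes held it, 8 of 12 that fell and 1 of 2 that rose. It was in 4 of 12 adhesion genes, 3 of 7 that fell and 0 of 1 that rose. Of the NF-kB regulators 7 of 14 held it, 5 of 10 that fell and 2 of 4 that did not pass, NFKBIA among the latter. A match describes letters only and shows no binding.

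Clotting and fibrinolysis genes also leaned downward. PLAU, the urokinase plasminogen activator, read 9.34, 9.45 and 9.34 on the untreated arrays and 6.84, 7.02 and 6.94 on the JINB8 arrays. Its receptor gene PLAUR had 9.62, 9.78 and 9.43 on the untreated arrays and 7.39, 7.36 and 7.74 on the JINB8 arrays. Both were lower on all treated arrays, by -2.45 ± 0.08 and -2.11 ± 0.12. THBD encodes thrombomodulin, the anticoagulant cofactor of thrombin, and differed by -1.25 ± 0.12. TFPI, the tissue factor pathway inhibitor, went the other way, from 9.63, 9.84 and 9.67 to 10.93, 11.09 and 10.90, a difference of 1.26 ± 0.09. The multimerin gene MMRN2 rose as well, by 1.26 ± 0.09. Of 17 measured members 10 fell and 3 rose, with a median of -0.70 (-0.19 with median centring). PLAT, the tissue plasminogen activator, did not pass, at -0.74 ± 0.42 (limma, adjusted p = 0.162).

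Genes that set vessel tone changed in both directions, 6 of 23 higher and 5 lower, shares close to those of all genes, and the sign of their median turned with cyclic loess. Besides the fall of PTGS2 and the rise of ADM, the prostacyclin synthase gene PTGIS fell from 7.03, 6.87 and 6.78 to 4.85, 4.73 and 4.87. DDAH1, which degrades an inhibitor of nitric oxide synthase, rose by 1.02 ± 0.07. CALCRL, the receptor subunit to which adrenomedullin binds, rose by 0.84 ± 0.09, whereas its partner RAMP2 fell, with a difference of -0.67 ± 0.17. EDN1, the constrictor endothelin 1, rose by 0.42 ± 0.08.

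Endothelial identity genes moved in both directions. CDH5, VE-cadherin of endothelial junctions, read 12.02, 11.97 and 12.04 on the untreated arrays and 12.18, 12.12 and 12.10 on the JINB8 arrays and did not pass (0.12 ± 0.07, limma, adjusted p = 0.194). The receptor gene TIE1 did not pass either, at 0.17 ± 0.07 (limma, adjusted p = 0.0789). Both passed with median centring, at 0.94 and 0.68, and TIE1 also with a variance trend and robust fit (0.17, limma, adjusted p = 0.0321). Of 29 measured members 11 rose and 9 fell, 2 and 5 at least 2-fold. CD34 and the VEGF receptor KDR were among those that fell, with differences of -4.38 ± 0.11 and -1.34 ± 0.29. The ETS factor gene ERG rose from 9.80, 9.53 and 9.87 to 10.56, 10.68 and 10.58, and ELK3, ETS2 and FLI1 of the same family rose by 1.15 ± 0.08, 1.01 ± 0.17 and 0.72 ± 0.08. ETS1 went from 9.02, 8.81 and 8.97 down to 7.68, 7.53 and 7.77, a difference of -1.27 ± 0.10. The SOX genes split as well, with SOX18 at 0.93 ± 0.10 and SOX17 at -1.11 ± 0.10, and MEF2C differed by -1.11 ± 0.09. Flow-responsive genes had 3 of 16 members higher and 7 lower, with CYP1A1 at -1.73 ± 0.10 and HMOX1, haem oxygenase 1, at -1.55 ± 0.14. KLF2, a factor that shear stress induces, did not pass, at -0.16 ± 0.11 (limma, adjusted p = 0.248).

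In the Notch pathway, through which neighbouring endothelial cells choose arterial and tip cell states, the targets HEY1 and HEY2 fell while members of other roles moved both ways. HEY2, a repressor that Notch induces, read 8.98, 8.54 and 8.72 on the untreated arrays and 5.17, 4.70 and 4.95 on the JINB8 arrays. HEY1 had 7.41, 7.03 and 6.78 on the untreated arrays and 4.30, 4.42 and 4.57 on the JINB8 arrays. Both were far lower with exosomes, by -3.80 ± 0.13 and -2.64 ± 0.14, and the arterial connexins GJA5 and GJA4 differed by -3.35 ± 0.15 and -1.49 ± 0.16. The related targets HEYL and HES1 rose by 0.32 ± 0.09 and 0.37 ± 0.14 (limma, adjusted p = 0.00938 and 0.0487). The HEYL call was lost with median centring (0.22) and with all 15 arrays (0.26). The HES1 call was lost with cyclic loess, the 6 compared arrays alone, all 15 arrays, array weights or all probesets (0.29 to 0.37), and without untreated array 1 or 3, any 1 JK array, or JINB8 array 2 or 3 (0.23 to 0.43). The ligand DLL4 rose from 6.83, 6.92 and 6.80 to 7.81, 7.92 and 8.48, whereas the ligand JAG1 differed by -1.53 ± 0.08. The receptor NOTCH1 rose by 0.54 ± 0.08 and NOTCH4 differed by -0.54 ± 0.12. RBPJ, the DNA-binding partner of the receptors, rose by 0.86 ± 0.09, but its other probeset gave 0.26 (limma over all probesets, adjusted p = 0.266). In all 7 of 23 members rose and 12 fell, with a median of -0.54. CXCR4, the chemokine receptor of sprouting cells, differed by -1.53 ± 0.12.

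For the growth factors of sprouting, 9 of 25 members rose (36%) and 8 fell (32%), against 26% and 23.3% of all genes. Their median was -0.06 or, with median centring, 0.26. ANGPTL4, a secreted angiopoietin-like protein, rose from 8.97, 8.96 and 8.87 to 10.34, 10.33 and 10.19. PDGFD and PDGFA, ligands for mural cell receptors, differed by -2.03 ± 0.10 and -1.80 ± 0.12, and the placental growth factor gene PGF by -1.24 ± 0.10. The receptor genes KDR and FLT1 stood at -1.34 and 0.74. Guidance genes were 5 of 25 higher and 11 lower, with a median of -0.12 that turned to 0.002 with median centring. The repellent semaphorin genes SEMA3D, SEMA3A and SEMA3G differed by -2.74 ± 0.10, -2.06 ± 0.14 and -1.64 ± 0.12, and EFNA1 was the one member above 2-fold upward. CD47 itself in the recipient cells read 9.08, 9.21 and 9.01 on the untreated arrays and 9.11, 9.11 and 9.26 on the JINB8 arrays, a difference of 0.06 ± 0.11 that did not pass (limma, adjusted p = 0.664), though it passed with median centring at 0.45.

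BMP genes moved in both directions. The ligands BMP4 and GDF3 rose, while the ligand BMP2 differed by -0.94 ± 0.09. The secreted antagonists FST, NOG and FSTL3 fell, NOG from 8.02, 7.77 and 7.55 to 4.94, 4.95 and 5.01 and FSTL3 with a difference of -2.29 ± 0.08. ID1, a direct target of BMP receptors, read 9.48, 9.57 and 9.35 on the untreated arrays and at most 7.37 on the JINB8 arrays, without overlap (-2.23 ± 0.11, limma, adjusted p = 1.07e-07). SMAD1 and SMAD9, which carry the BMP signal, moved in opposite directions, by 1.57 ± 0.07 and -1.69 ± 0.08. The inhibitory SMAD6 differed by -1.95 ± 0.10. Of 28 members 6 rose and 12 fell. TGF-beta genes showed 8 of 25 higher (32%) and 7 lower (28%), against 26% and 23.3% of all genes. The sign of their median, -0.05, turned to 0.44 with median centring. The ligand TGFB2 was at 11.15, 11.38 and 11.27 on the untreated arrays and 9.65, 9.24 and 8.59 on the JINB8 arrays. Its receptor TGFBR1 differed by -1.69 ± 0.07, the coreceptor TGFBR3 by 1.92 ± 0.13, the matrix target TGFBI by -2.21 ± 0.09 and the signal carrier SMAD3 by -0.82 ± 0.11.

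The actin and myosin apparatus fell broadly. Of 25 measured contractile cytoskeleton genes 19 fell and 2 rose, 8 and 0 at least 2-fold, with a median of -0.75 (-0.21 with median centring). MYL9, a regulatory myosin light chain, read 9.41, 9.70 and 9.65 on the untreated arrays and 7.41, 7.45 and 7.28 on the JINB8 arrays. The adhesion linker gene VCL, vinculin, had 10.36, 10.34 and 10.33 on the untreated arrays and 8.73, 8.70 and 8.82 on the JINB8 arrays. Treated arrays were lower without overlap for both, by -2.21 ± 0.09 and -1.59 ± 0.07. The tropomyosins TPM1 and TPM2 differed by -1.35 ± 0.12 and -1.34 ± 0.13, the calponin CNN2 by -1.35 ± 0.12 and TAGLN2, a relative of TAGLN, by -1.15 ± 0.10. Among 14 intermediate filament genes 8 fell and 3 rose, KRT7 alone by more than 2-fold, and KRT8, a keratin of simple epithelia, rose by 0.82 ± 0.09.

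Matrix genes gave 6 of 37 collagens, laminins and basement membrane members higher and 17 lower, with a median of -0.25 that turned to 0.08 with median centring. COL4A1 and COL4A2 encode the main collagen chains of the vascular basement membrane. COL4A1 read 9.69, 9.27 and 9.77 on the untreated arrays and 7.48, 7.62 and 8.05 on the JINB8 arrays. COL4A2 read 9.79, 9.46 and 10.00 on the untreated arrays and 7.90, 7.96 and 8.30 on the JINB8 arrays. Both were lower on all treated arrays, by -1.86 ± 0.17 and -1.70 ± 0.16. COL12A1 differed by -1.80 ± 0.10 and tenascin C, TNC, by -1.39 ± 0.09. NID1 and LOXL2, a laminin-binding protein and a collagen crosslinker, rose by 0.95 ± 0.11 and 0.99 ± 0.12. Matrix proteases and their inhibitors had 10 of 26 members higher and 11 lower. The inhibitor TIMP3 rose by 1.89 ± 0.11, but its other probeset gave 0.25 (limma over all probesets, adjusted p = 0.138). ADAMTS1 and the cathepsin CTSS differed by -1.96 ± 0.13 and -1.90 ± 0.10, and the stromelysin MMP10 by -1.42 ± 0.15. Integrins were 4 of 14 higher (28.6%) and 4 lower (28.6%), near the shares of all genes. Next to ITGA4, ITGB8 and ITGAV differed by -1.62 ± 0.16 and -0.92 ± 0.08, while ITGB5 and ITGA10 rose by 0.95 ± 0.08 and 1.13 ± 0.14.

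Glucose metabolism and the hypoxia response made up the broadest rise. Cells short of oxygen stabilise hypoxia-inducible factors, which raise glucose uptake, glycolysis and vessel growth genes. Of 30 measured hypoxia genes 23 rose and 4 fell, 10 and 1 of them at least 2-fold, with a median of 0.73 against 0.02 for all genes. EGLN3, a hydroxylase that marks these factors for degradation, read 5.20, 5.17 and 5.26 on the untreated arrays and 7.69, 7.36 and 7.19 on the JINB8 arrays. P4HA1, a collagen prolyl hydroxylase, had 8.34, 8.24 and 8.06 on the untreated arrays and 10.22, 10.02 and 9.86 on the JINB8 arrays. ANKRD37 was at 5.79, 5.70 and 5.84 on the untreated arrays and 7.67, 7.52 and 7.33 on the JINB8 arrays. All were higher on every treated array, by 2.20 ± 0.18, 1.82 ± 0.13 and 1.73 ± 0.10. BNIP3 of mitochondrial clearance and DDIT4, an inhibitor of the growth kinase mTOR, rose by 1.37 ± 0.10 and 1.22 ± 0.10, and VEGFA by 0.84 ± 0.13. EPAS1, which encodes the endothelial factor HIF-2 alpha, rose by 0.67 ± 0.13. NDRG1 fell the most of the 4 hypoxia genes that were lower, from 10.03, 10.20 and 9.95 to 8.70, 8.71 and 8.79. In the deposited values the list's median was -0.79, above the -1.71 of all genes.

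Of 26 glycolysis genes 17 rose and 5 fell, with 9 rises and no fall of at least 2-fold and a median of 0.57 (0.98 with median centring). The brain form of enolase, ENO2, read 6.85, 6.88 and 6.79 on the untreated arrays and 8.83, 8.77 and 8.71 on the JINB8 arrays. HK2, a hexokinase at the entry of the pathway, had 6.60, 6.10 and 6.25 on the untreated arrays and 7.89, 7.91 and 7.78 on the JINB8 arrays. PDK4, which blocks entry of pyruvate into mitochondria, was at 4.92, 4.73 and 4.57 on the untreated arrays and 6.87, 6.95 and 7.02 on the JINB8 arrays. Each was higher without overlap, by 1.93 ± 0.08, 1.55 ± 0.14 and 2.21 ± 0.10. The kinase PDK1 rose by 1.52 ± 0.09, the aldolase ALDOC by 1.79 ± 0.09 and lactate dehydrogenase A, LDHA, by 0.86 ± 0.13. SLC2A3, a neuronal type glucose transporter, rose by 1.78 ± 0.08, but it shares sequence with SLC2A14 and is uncertain as a single gene. Oxidative phosphorylation genes were 10 of 39 higher and 16 lower, with a median of -0.16 that turned to 0.09 with median centring.

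Promoters of 3 of the genes that rose are shown since they hold the core that hypoxia-inducible factors bind, at chr4:185396591-185396840 (plus strand), chr10:73096867-73097116 (minus) and chr12:6914330-6914579 (plus) of GRCh38.p14 from RefSeq, in the same window and orientation. Capitals mark ACGTG on either strand, which overlaps itself in CACGTG.
ANKRD37: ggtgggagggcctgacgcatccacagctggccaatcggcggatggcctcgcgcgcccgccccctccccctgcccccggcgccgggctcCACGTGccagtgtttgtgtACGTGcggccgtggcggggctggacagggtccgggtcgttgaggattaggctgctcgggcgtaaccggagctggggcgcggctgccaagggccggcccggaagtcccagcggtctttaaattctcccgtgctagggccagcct
P4HA1: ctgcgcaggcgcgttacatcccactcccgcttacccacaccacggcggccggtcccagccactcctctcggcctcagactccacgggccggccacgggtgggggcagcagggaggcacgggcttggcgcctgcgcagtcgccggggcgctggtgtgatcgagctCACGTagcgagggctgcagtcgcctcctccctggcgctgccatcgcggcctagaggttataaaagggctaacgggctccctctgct
ENO2: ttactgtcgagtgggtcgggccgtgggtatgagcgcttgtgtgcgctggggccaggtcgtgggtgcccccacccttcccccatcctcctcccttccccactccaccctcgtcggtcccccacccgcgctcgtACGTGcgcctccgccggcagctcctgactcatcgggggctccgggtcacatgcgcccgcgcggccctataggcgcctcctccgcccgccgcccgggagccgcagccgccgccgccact
ACGTG is short, and 18.7% of the 27305 promoters held it, or 21.1% of the 14239 promoters of measured genes. Of the promoters found, 13 of 25 hypoxia genes held it, 11 of 20 among those that rose and 2 of 3 among those that fell. So did 10 of 24 glycolysis genes, 8 of 16 that rose and 2 of 4 that fell. The windows of SLC2A1, ADM and EGLN3 held no match, which says only that these letters are not there.

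**Figure D3:**
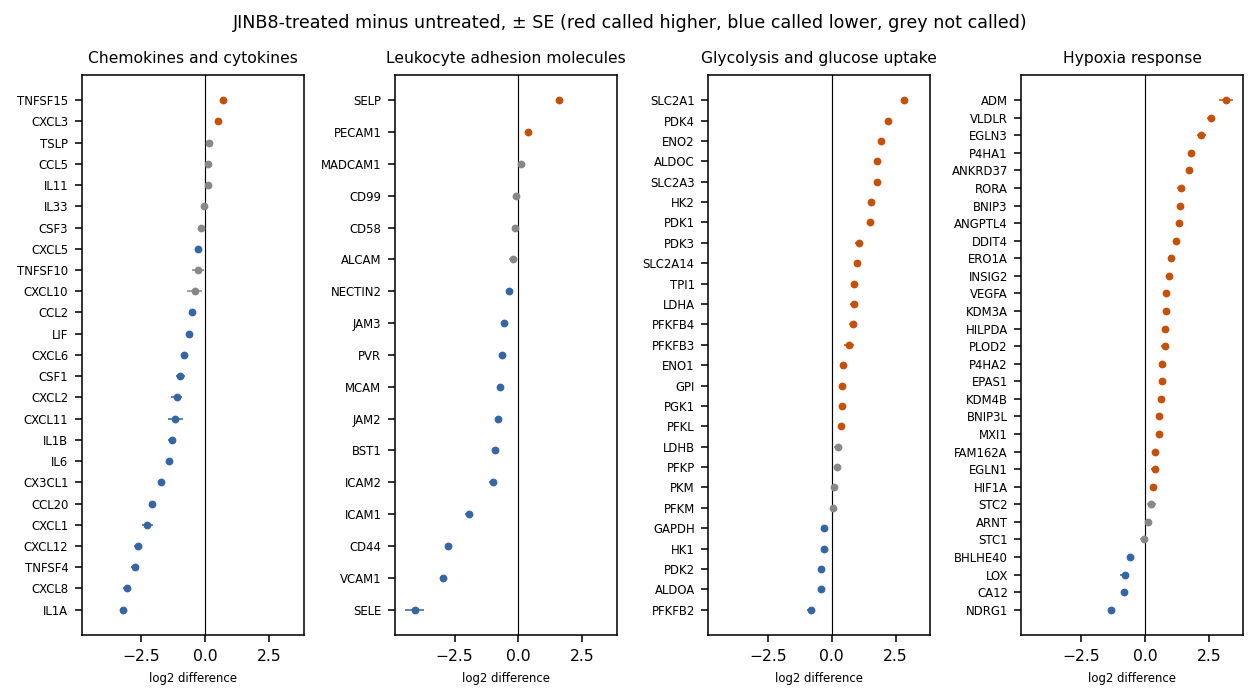
Log2 differences of JINB8-treated minus untreated HUVEC, with standard errors, are plotted for every measured member of 4 gene lists, coloured by call. Most chemokine and adhesion genes lie left of 0, down to -4.07 for SELE, and most glycolysis and hypoxia genes lie right of it, up to 3.18 for ADM.

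Genes associated with FOXO factors, which act when growth factor signalling is low, rose in 19 of 32 cases and fell in 4, with a median of 0.45 (0.74 with median centring). SESN3, a sestrin that restrains mTOR, read 5.32, 5.43 and 4.66 on the untreated arrays and 8.41, 8.38 and 7.53 on the JINB8 arrays. TXNIP, which limits glucose uptake and binds thioredoxin, had 8.03, 7.73 and 7.64 on the untreated arrays and 9.37, 9.49 and 10.41 on the JINB8 arrays. The pseudokinase gene TRIB2 was at 5.35, 4.88 and 5.03 on the untreated arrays and 6.92, 7.02 and 6.77 on the JINB8 arrays. The groups were separate in all 3, and TXNIP and TRIB2 differed by 1.96 ± 0.32 and 1.82 ± 0.13. FOXO1 rose by 0.29 ± 0.08, the cell cycle inhibitor CDKN1B by 0.66 ± 0.09 and the antiproliferative gene BTG1 by 1.09 ± 0.13. TRIB1, a relative of TRIB2, moved the other way by -1.76 ± 0.14, as did KLF6 by -1.42 ± 0.09. The FOXO form GTAAACA was in 3 of 29 promoters of the list, against 2.98% of all and 2.07% of those of measured genes. The E-box CACGTG was in 5 of 29, against 6.49% and 7.86%.

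Genes of cell division fell. Of 33 measured mitosis genes 24 fell and none rose, 10 of them at least 2-fold, with a median of -0.87. KIF23, a kinesin of the midbody, read 6.93, 6.65 and 6.59 on the untreated arrays and 4.70, 5.06 and 4.55 on the JINB8 arrays. CDC20, which triggers anaphase, had 8.22, 7.26 and 7.72 on the untreated arrays and 5.88, 6.31 and 6.19 on the JINB8 arrays. The proliferation marker MKI67 was at 7.59, 7.02 and 7.20 on the untreated arrays and 5.71, 6.21 and 6.12 on the JINB8 arrays. All 3 were lower on each treated array, by -1.95 ± 0.14, -1.60 ± 0.20 and -1.26 ± 0.15, and the kinase PLK1 differed by -1.24 ± 0.23. DNA replication genes fell in 16 of 35 cases and rose in 4, with GINS2 at -1.67 ± 0.13 and MCM5 at -1.05 ± 0.14, while PCNA did not pass at -0.16 ± 0.15 (limma, adjusted p = 0.407). Of the G1 cyclins and their inhibitors 11 of 23 fell and 5 rose. Besides CCND1, the germ cell cyclin CCNA1 differed by -3.97 ± 0.13, CCND2 by -1.12 ± 0.09 and the kinase CDK4 by -0.97 ± 0.10, while the retinoblastoma gene RB1 rose by 0.91 ± 0.08. Ribosome biogenesis genes fell in 18 of 32 cases and rose in 3, with a median of -0.26 (-0.09 with median centring), but 1 of them changed at least 2-fold, NOP16 at -1.05 ± 0.13.

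Immediate early genes and feedback regulators of MAP kinase fell in 14 of 33 cases and rose in 5. SPRY4, an inhibitor of growth factor signalling, read 7.99, 7.67 and 7.68 on the untreated arrays and 5.36, 5.74 and 6.27 on the JINB8 arrays. The AP-1 subunit FOSL1 differed by -1.19 ± 0.09. IER3, which is an early response and survival gene, went the other way at 9.26, 9.14 and 9.37 on the untreated arrays and 11.14, 11.04 and 10.53 on the JINB8 arrays, a rise of 1.64 ± 0.16. SPRY4 and IER3 thus lay on opposite sides, each without overlap. Of 25 p53 and apoptosis genes 12 fell and 6 rose, with a median of -0.26 that turned to 0.10 with median centring. The death receptor FAS fell from 6.66, 6.79 and 6.52 to 5.18, 5.23 and 5.28, the caspase CASP8 differed by -0.96 ± 0.10, and the p53 target CDKN1A by -0.74 ± 0.13.

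Interferon-stimulated genes did not move as one group, with 11 of 35 higher and 7 lower, near the shares of all genes. The IFIT genes, which bind foreign RNA, were among the higher ones. IFIT2 read 4.66, 4.21 and 4.01 on the untreated arrays and 7.36, 7.65 and 7.04 on the JINB8 arrays. IFIT1 had 6.81, 5.55 and 5.80 on the untreated arrays and 7.94, 8.68 and 7.92 on the JINB8 arrays. Both were higher on all treated arrays, by 3.05 ± 0.30 and 2.12 ± 0.45, and IFIT3, HERC5 and IFI44L rose by 1.85 ± 0.27, 1.35 ± 0.19 and 1.34 ± 0.32. IFI27 was lower, from 10.89, 10.74 and 10.74 to 8.79, 9.59 and 8.95, and BST2, or tetherin, and OAS2 differed by -1.32 ± 0.17 and -1.15 ± 0.26. ISG15 did not pass, at -0.15 ± 0.09 (limma, adjusted p = 0.221).

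Among the lists of stress, lipid, lysosome, chromatin and transport genes, the metallothioneins and antioxidants had the highest share lower, 60.9%. Of all genes 26% rose and 23.3% fell. Of 31 genes of ATF4 and the unfolded protein response 9 rose (29%) and 10 fell (32.3%), near those shares. The amino acid transporter SLC7A5 read 8.17, 8.20 and 8.13 on the untreated arrays and 6.75, 6.68 and 6.66 on the JINB8 arrays. Its partner SLC3A2 differed by -1.09 ± 0.07, and the cystine transporter SLC7A11 by -1.28 ± 0.10. The 3 transport genes fell, while the chaperone HSPA5 rose by 0.45 ± 0.08. Metallothioneins and antioxidant genes fell in 14 of 23 cases and rose in 4, 3 and 0 at least 2-fold, with a median of -0.52 (-0.155 with median centring). Among them MT1X differed by -1.71 ± 0.15 and GCLC by 0.87 ± 0.13. The metallothioneins are near-identical copies and uncertain as single genes. Chaperones were 3 of 23 higher (13%) and 7 lower (30.4%). HSPH1 rose by 0.98 ± 0.35 (limma, adjusted p = 0.0345), a call lost without any 1 of the untreated arrays, without JINB8 array 1 and without JINB8 array 2 (differences of 0.77 to 1.11), and also with cyclic loess (0.89) and with a variance trend and robust fit (0.98). Sterol and fatty acid synthesis had 4 of 23 higher (17.4%) and 7 lower (30.4%), with HMGCS1 at -1.31 ± 0.10 and the desaturase SCD at 1.26 ± 0.22. Sphingolipid and sialic acid enzymes were 11 of 25 higher (44%) and 8 lower (32%), with ST8SIA6 and ACER2 the only members above 2-fold. Lysosome and autophagy genes were 8 of 21 higher (38.1%) and 4 lower (19%), led by the autophagy receptor NBR1 at 1.17 ± 0.15. Chromatin regulators were 11 of 27 higher (40.7%) and 7 lower (25.9%), with the deacetylase HDAC9 at -1.71 ± 0.10. Ion channels and transporters were 5 of 26 higher (19.2%) and 10 lower (38.5%), with the taurine transporter SLC6A6 at 1.22 ± 0.14 and the sterol exporter ABCG1 at -1.04 ± 0.12. Medians of the ATF4, chaperone, sterol, chromatin and ion channel lists changed sign between quantile normalization, median centring and cyclic loess.

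**Figure D4:**
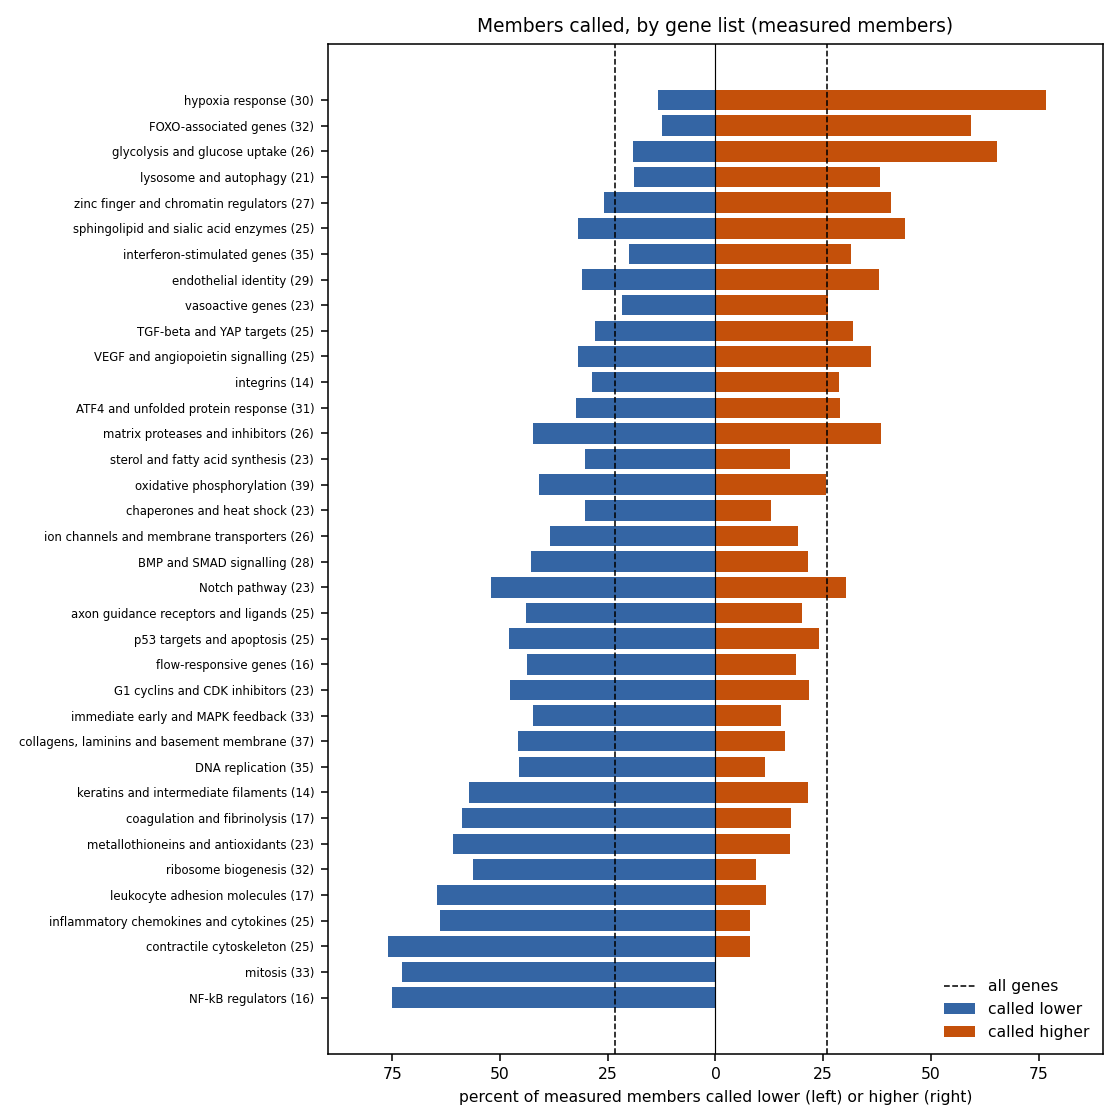
Bars give the percent of each list's measured members called lower (left) and higher (right), with the number measured in parentheses and dashed lines at the shares of all genes, 23.3% and 26%. NF-kB regulators and mitosis genes reach 75% and 72.7% lower with none higher, and hypoxia genes reach 76.7% higher.

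The labelled cell type was checked against its markers. Their calls stand against 26% higher and 23.3% lower among all genes. All 11 endothelial markers ranked above the median gene in at least one of the groups, 2 rose and 3 fell, and their mean level was 9.80 to 9.98 on untreated and 9.71 to 10.01 on JINB8 arrays. Of 12 measured T cell markers 11 ranked below the median gene in both groups. The T cell mean level was 4.69 to 4.76 on untreated and 4.62 to 4.72 on JINB8 arrays, and the summed linear signal was 437.8 to 499.5 against 454.2 to 469. Among them 1 rose and 3 fell. Mural and fibroblast markers, a list that holds TAGLN and ACTA2, had a mean level of 6.07 to 6.19 on untreated and 5.74 to 5.79 on JINB8 arrays. Of these 12 markers 3 were higher and 3 lower, near the shares of all genes, with a median log2 difference of 0.09. Their summed linear signal, which includes that of TAGLN and ACTA2 themselves, was 3305 to 3496 against 2222 to 2456. A part of mural cells in the falls of contractile genes was not tested. Monocyte and macrophage markers had 0 of 7 higher and 3 lower, lymphatic endothelial markers 1 of 5 each way, and epithelial markers 1 of 5 higher and none lower.

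A set of 252 genes was also compared directly with HUVEC with JK exosomes, in the same fit. It holds the genes that the naming rule picked, not all of which are printed here, and the further list members described above. Genes picked only as cell type markers are left out of it. Both treated groups share the untreated arrays, so only the direct differences are given. None of the 252 passed (limma, adjusted p of 0.184 or more, over all genes), and 26 of them had an unadjusted 95% interval that left out 0. Over all 18417 genes 0 passed (0%), the smallest adjusted p being 0.0599, and 1898 genes (10.3%) had an unadjusted p under 0.05. With array weights, which give noisier arrays less influence, 284 genes passed (limma), 6 of them in this set: DDIT4, ID1, MYRFL, NOG, SLC3A2 and TIMP3. The direct differences ran from -0.88 to 0.87, against up to -4.96 for the difference from untreated cells. For TAGLN the difference of JINB8 from JK was 0.10 (95% interval -0.12 to 0.32), for SELE -0.22 (-1.03 to 0.58) and for SLC2A1 0.10 (-0.19 to 0.39). ID1 and NOG were lower with JINB8 than with JK by -0.41 (-0.66 to -0.16) and -0.47 (-0.72 to -0.22), intervals that leave out 0 before adjustment. The half-width of the intervals ranged from 0.16 to 1.42, so smaller differences between the exosome types were not detectable with 3 arrays a group, and a missed threshold does not show that the 2 exosome types act alike.

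**Figure D5:**
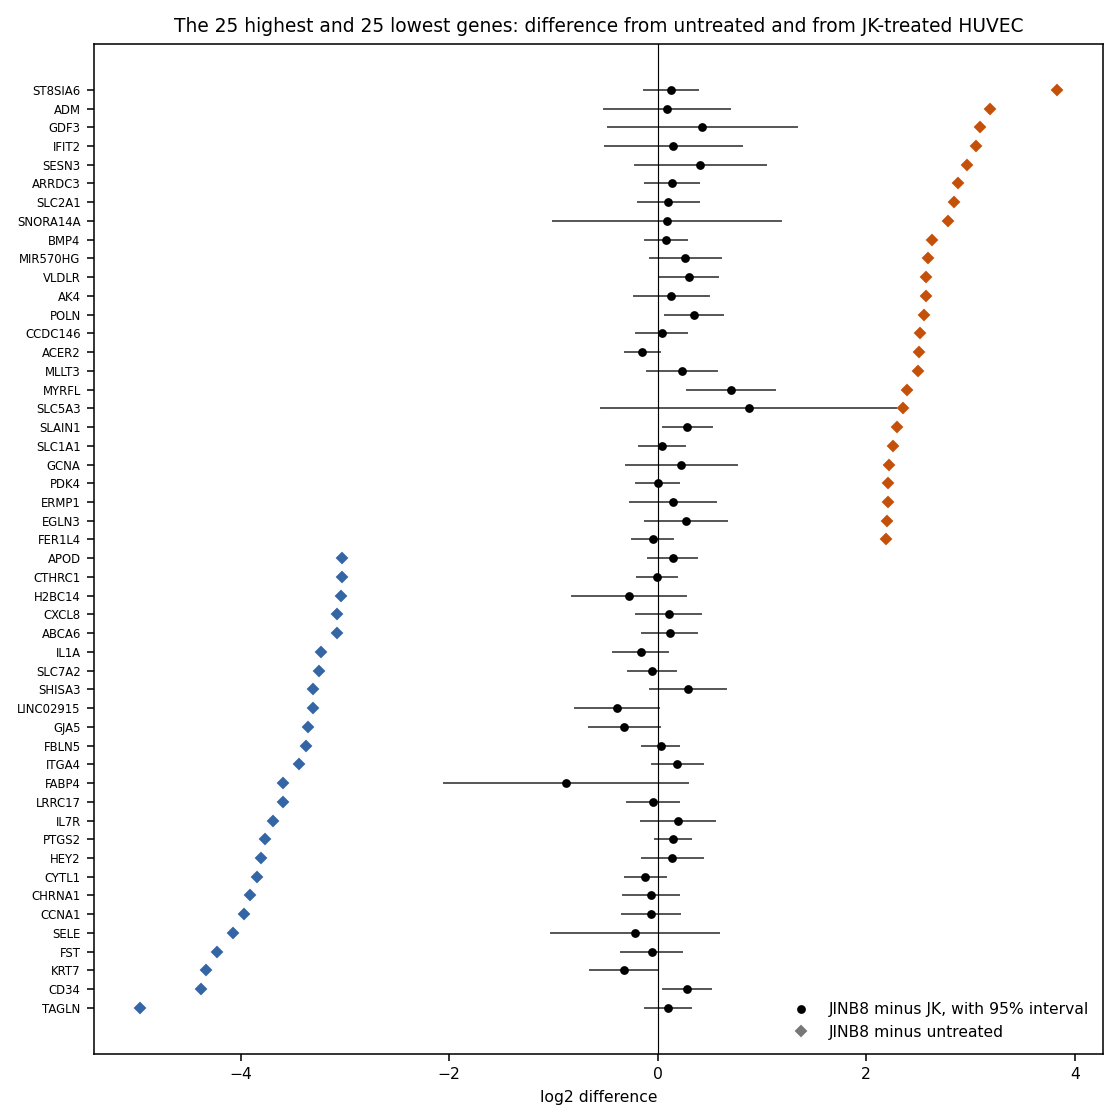
For the 25 highest and 25 lowest genes, diamonds give the log2 difference of JINB8-treated minus untreated HUVEC, and round points with lines give the difference of JINB8-treated minus JK-treated HUVEC with its 95% interval. The diamonds reach 3.83 and -4.96, while the round points lie between -0.88 and 0.87.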

How the data were processed

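Total RNA of 9 HUVEC samples was measured on Affymetrix whole-transcript arrays. The authors deposited log2 values, processed with Affymetrix Expression Console per the submitters' processing notes. How background and array levels were treated is, like its version, not given in the sources used here. Of 33297 probesets 19460 carried 1 gene symbol in the platform annotation, 1754 several and 12083 none, and 19429 matched RefSeq by Entrez identifier. Where several probesets named a gene, the one brightest on average over the HUVEC arrays stood for it (769 genes), and 18417 genes were left.

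Gene values were quantile-normalized over the 9 HUVEC arrays and fitted with limma 3.58.1 in R 4.3.3 (lmFit and eBayes, 3 groups, no covariates, 6 residual degrees of freedom). P-values were adjusted over all 18417 genes by Benjamini-Hochberg, and calls have an adjusted p under 0.05. Differences are given with moderated standard errors and levels with SD. The fit was tested on simulated arrays with few changed genes and a uniform level shift. These data differ in both, so that run does not test the normalization used here. The number of arrays limits the precision. With 3 against 3 arrays an exact permutation test could not give a p below 0.1, so none is reported.

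The members, the gene lists and the naming rule were chosen with earlier results of these data known, so the lists give no independent support. The rule for naming genes, not all of which are printed, took the 25 highest and 25 lowest called genes without overlap between groups, the 15 highest and 15 lowest of those in the top 33.3% of both groups, up to 4 called members of each list with the largest difference, KDR, FLT1, VEGFA, CD47, THBS1, SIRPA, and cell type markers. Antisense, LOC, ORF and blank symbols, HLA genes, Y-linked genes, XIST and genes with common null alleles were passed over, whatever their change. Further list members were chosen after their values were seen. Lists were described by counts and medians, with no set test. Promoters, 250 bases before the start, came from RefSeq for GRCh38.p14.

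Same-numbered replicates of the 2 groups did not deviate together (correlations of -0.01, 0.06 and 0.06 across genes), so the numbers were not taken to pair samples. Alternatives were median centring, cyclic loess, the values as deposited, all 15 or the 6 compared arrays, leaving out the 40% dimmest genes, averaging probesets of a gene, array weights, robust fitting with a variance trend, the replicate block, an unadjusted p with a 1.5-fold change, and leaving out each array. Quantile normalization over all probesets was added after the data were seen.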

Additional observations from a re-analysis of the deposited data

How the results depend on the processing

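In the values as deposited 18286 genes passed, 34 higher and 18252 lower, 16632 of them at least 2-fold, since no array-wide difference was removed. Calling genes by an unadjusted p below 0.05 and 1.5-fold gave 3562, 1773 higher and 1789 lower. Quantile normalization over all 15 arrays left 629 genes at 2-fold, and the cause was not tested. Quantile normalization over all probesets, added after the data were seen, gave 4249 higher and 4811 lower. The replicate block, for numbers that were not shown to pair the samples, gave 8808 genes (4645 higher, 4163 lower, 1114 at least 2-fold), and among the selected genes HES1 and HSPH1 lost their call with it (limma, adjusted p = 0.0775 and 0.0597). Leaving out each of the 9 arrays in turn gave 7816 to 9340 genes in all, 4125 to 4955 higher, 3691 to 4385 lower, and 1077 to 1189 at least 2-fold, and 0 to 0 of the 252 selected genes that differed between JINB8 and JK exosomes. With array weights 6 of the selected genes, and 284 of all genes, passed that direct test (limma, adjusted p under 0.05).

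Of the 252 selected genes 242 were called, and 233 of these kept direction and call in each of 19 alternatives that held them. The setting without the 40% dimmest genes held 226 of the 252, and the values as deposited were not among the 19. Many of these genes were picked for large differences, so the count does not describe all genes. The sign turned for CD47 with cyclic loess (-0.0098), and for HSPB1 and SIRPA with median centring (0.24 and 0.12). Without detection calls the sizes of changes at low signals are uncertain.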

Other observations

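Probesets that no gene symbol names were fitted with the rest in a model over all 33297 probesets. Of 12083 unnamed probesets 2023 (16.7%) were higher and 1345 (11.1%) lower in HUVEC with JINB8 exosomes (limma, adjusted p under 0.05), 370 and 168 of them at least 2-fold. Among probesets with 1 symbol the shares were 20.6% and 23.6%, with 446 higher and 744 lower at least 2-fold. At the 2-fold level the unnamed probesets were thus more often higher and the named ones more often lower.

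Gene families taken by symbol, and chosen after the data were seen, add groups that no list held. Of 494 zinc finger genes named ZNF 167 (33.8%) rose and 109 (22.1%) fell, against 26% and 23.3% of all genes. Histone genes fell in 28 of 63 cases and rose in 8, with 13 falls of at least 2-fold, though their near-identical copies are uncertain as single genes. Kinesin genes, motors of transport and mitosis, fell in 14 of 39 cases and rose in 6. Of 341 olfactory receptor genes, which serve smell in the nose and had a median level of 4.05 in untreated and 4.01 in treated cells, 38 (11.1%) rose and 62 (18.2%) fell, 0 and 2 of them at least 2-fold. MicroRNA precursor genes rose in 41 of 173 cases and fell in 27.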
